A study of Homo sapiens with 12 samples.

Results

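The ID family (ID1, ID2, ID3 and ID4), ATOH8, SMAD6 and SMAD9 are genes that BMP signalling is known to switch on, and their RNA was followed here in 3 established cancer cell lines. These 7 genes, of 57500 in the count table, were taken by name from the symbols of the table. They were selected on earlier fold changes of these libraries, in part: ATOH8 was among the lowest genes in the PEO4 line with TGF-β, and the others were added by name as known BMP targets. Their differences in PEO4 and between the SW lines are therefore given as descriptions, with no test.

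RNA sequencing after depletion of ribosomal RNA covered 12 libraries in 4 groups of 3 biological replicates. The ovarian cancer line PEO4 was kept in RPMI medium, either as a control or with recombinant human TGF-β at 10 ng/mL for 6 days. SW480, from a primary colorectal tumour, and SW620, from a metastasis of the same patient, were grown untreated in DMEM. Cell line and medium differ together between PEO4 and the SW lines, so their parts in a difference between them cannot be told apart, and each line is a single line and no sample of its tumour type.

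BMPs are ligands of the TGF-β family that bind receptor pairs of a type I and a type II serine/threonine kinase. The type I receptor phosphorylates SMAD1, SMAD5 and SMAD9, which join SMAD4, enter the nucleus and switch on a short list of direct targets. The ID genes head that list: ID proteins have a helix-loop-helix domain but no DNA-binding region, so they hold E proteins and other bHLH factors off DNA and are tied to proliferation and to delayed differentiation. TGF-β itself signals mainly through SMAD2 and SMAD3 and, in epithelial cells, is known to repress ID genes, with ATF3 as one of the factors involved.

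The counts of the 12 libraries summed to between 14531420 and 22028956. Levels are given as CPM, counts per 1000000 counts after TMM scaling over all libraries. Before TMM scaling, 3 counts, the limit that a count of 0 allows, correspond to 0.136 to 0.206 per 1000000 counts. For fold changes against the floor, the 3 counts were TMM-scaled, at 0.149 CPM in SW620. Such fold changes are bounds only where every count was 0. The floor covers counting error only. The ovarian markers PAX8, WT1, MUC16, KRT7 and FOLR1 summed to 5035 to 8508 CPM in PEO4 control and 3613 to 5800 CPM with TGF-β, against 81.1 to 145 CPM in the SW libraries. MUC16 was the largest part of the PEO4 sums, with means of 5661 (control) and 2408 CPM (treated). FOLR1 did not follow the sum. Its SW620 mean, 16.4 ± 10.8 CPM (SD, n = 3), was above its PEO4 means, 12.6 for control libraries and 8.79 for treated ones. In SW480 its mean was 3.44 CPM. The colorectal markers CDX2, VIL1, CDH17, KRT20 and LGALS4 summed to 34.9 to 57.0 CPM in SW480, 192 to 286 CPM in SW620 and at most 2.69 CPM in PEO4. KRT20 was low in SW480 and SW620 too, with means of 0.208 and 0.477 CPM. LGALS4 had 0.422 CPM in SW480, near the 0.260 CPM of PEO4 control. Stromal, endothelial and leukocyte markers (DCN, LUM, PDGFRB, PECAM1, CDH5 and PTPRC) summed to 2.28 to 2.42 CPM in SW480 and 9.10 to 21.6 CPM in SW620, with 3 of the 6 at or under 3 counts in all of SW480, and to 4.60 to 6.07 CPM in PEO4. Their part in the differences between SW620 and SW480 was not tested. SW620 replicate 3 stood apart: 18 genes with at least 20 CPM in every PEO4 library and at most 3 counts in the other SW libraries were found there at 1.28% of their PEO4 level. The rule was chosen after seeing the data. For each of the other 5 SW libraries it set SW620 replicate 3 aside, and 18 to 25 genes were at 0.169% to 0.416%. In SW620 replicate 2, at 0.229%, the median gene was at 0%.

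The promoters of the genes were read from RefSeq on GRCh38.p14, and all 7 had an entry. The stretches below are shown because they hold the motifs that the results on promoters turn on. ID2 is shown over the bases where ID1, ID3 and ID4 hold TATAA. All run 5′ to 3′ on the strand of the gene and end at the base before the RefSeq start, position -1, except for ID2 and ID3, where bases -40 to -11 are shown. Capitals mark matches, on either strand, to the TATA box letters TATAA, to the CAAT box letters CCAAT, or to the SMAD-binding palindrome GTCTAGAC.
ID1, chr20:31605189-31605288, plus strand: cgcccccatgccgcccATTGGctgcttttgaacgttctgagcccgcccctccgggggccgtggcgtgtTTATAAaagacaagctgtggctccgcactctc
ID2, chr2:8682016-8682045, plus strand: gcgagtgcggataaaagccgccccgccggg
ID3, chr1:23559512-23559541, minus strand: caggcaggctcTATAAgtgaccgccgcggc
ID4, chr6:19837270-19837369, plus strand: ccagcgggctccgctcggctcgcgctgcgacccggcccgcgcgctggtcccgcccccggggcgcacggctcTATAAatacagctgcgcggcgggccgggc
SMAD6, chr15:66702136-66702235, plus strand: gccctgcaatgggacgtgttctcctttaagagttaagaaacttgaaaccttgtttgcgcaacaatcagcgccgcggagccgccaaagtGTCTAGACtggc

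Over the 250 bases before the RefSeq start, on both strands, TATAA was in the windows of ID1, ID3 and ID4 and in 18.9% of 35116 RefSeq promoter windows of the same length. The match began at base -29 in ID3 and in ID4, and in ID1 the matches on the 2 strands overlapped, from -32 to -27. CCAAT was in the windows of ID1, ID2 and ID4, 3 times in ID2, and in 32.0% of all windows. GTCTAGAC, bases -12 to -5 of SMAD6, was in that window alone among the 7 genes and in 0.182% of all windows (64 of 35116). GGCGCC, a GC-rich site that BMP SMADs are known to bind, was in 0 of the 7 windows and in 16.4% of all. Sequence outside the 250 bases was not searched, so sites farther from the start are not covered. CAGCTG, an E-box of the kind that E proteins bind, was in the windows of ID2, ID4 and ATOH8 and in 14.0% of all. The 7 windows were 62% to 78.8% G and C, above the median of 58% over all windows. ATOH8 and SMAD9 held none of the motifs in capitals above.

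All 7 genes were lower in PEO4 with TGF-β than in its control, and for each of them the highest TGF-β library was below the lowest control library. The control mean was between 1.48 times (ID4) and 7.61 times (ATOH8) the TGF-β mean. Among all 19064 genes tested, 8.48% were lower without overlap in this way and 11.6% were higher without overlap. The median log2 fold change of the 7 genes was -1.16, against -0.02 over all genes tested. In bulk RNA, fewer cells that express a gene and less RNA per cell cannot be told apart.

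**Figure D1:**
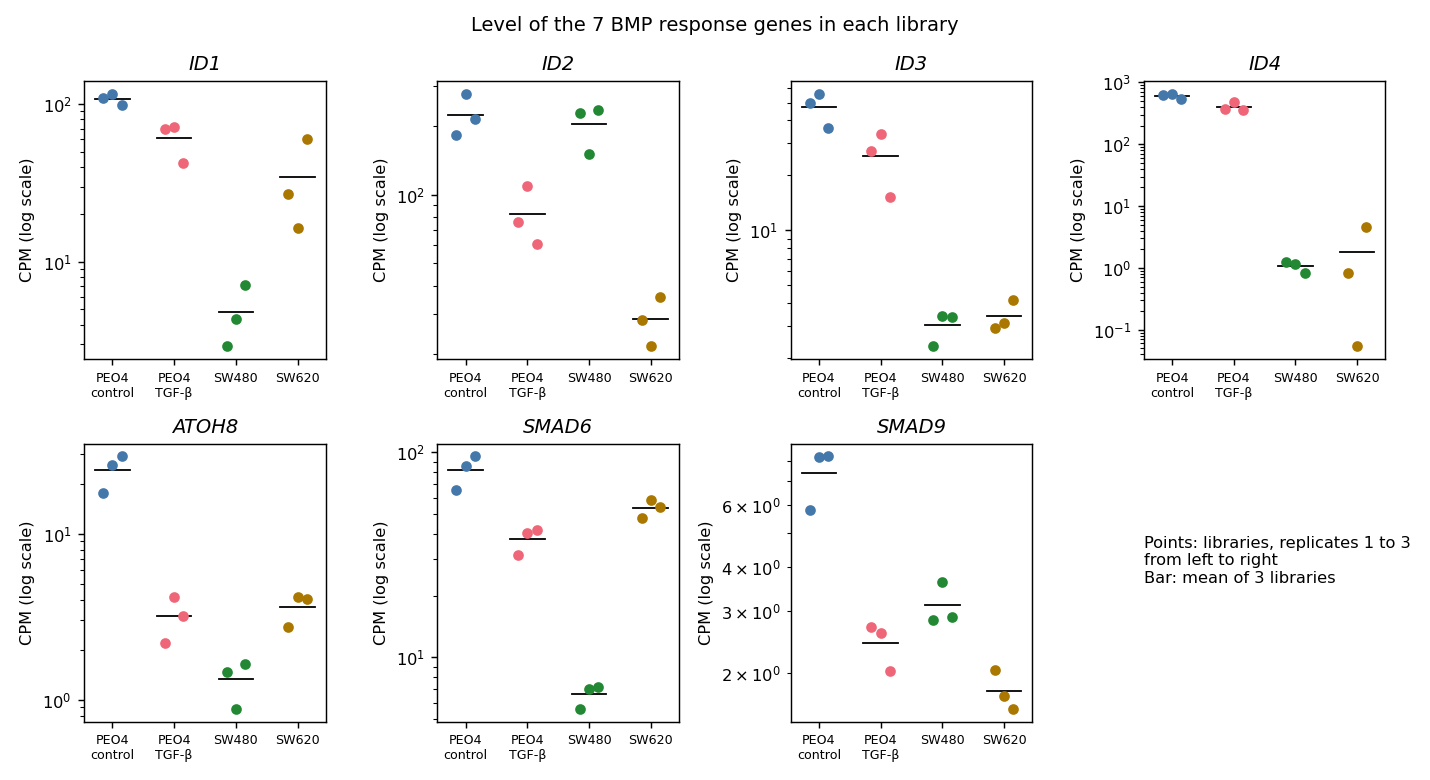
Level of each gene (TMM-scaled CPM, log axis) in the 12 libraries, by group; points are libraries and bars the group means. In all 7 panels the PEO4 libraries with TGF-β lie below the PEO4 controls, while ID2 and SMAD6 have opposite orders in SW480 and SW620.

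Among the SMADs, SMAD6 (ENSG00000137834, chromosome 15, 66702228 to 66782848, plus strand, GRCh38 in GENCODE 29) encodes an inhibitory SMAD that binds BMP type I receptors and is itself a BMP target, a negative feedback. It had 65.8, 85.8 and 95.6 CPM in control replicates 1, 2 and 3 and 31.4, 40.3 and 41.7 CPM in TGF-β replicates 1, 2 and 3. Control replicate 1 was the lowest control and still exceeded every TGF-β library. The means were 82.4 ± 15.1 and 37.8 ± 5.60 CPM (SD, n = 3), and the log2 fold change was -1.16 ± 0.16 (SE). SMAD9 (ENSG00000120693, chromosome 13, 36844831 to 36920765, minus strand), a receptor-activated BMP SMAD, was the least abundant of the 7 genes in PEO4, in CPM and per length. It had 5.79, 8.18 and 8.23 CPM in the controls and 2.70, 2.59 and 2.02 CPM with TGF-β. The means were 7.40 ± 1.40 and 2.44 ± 0.362 CPM (SD, n = 3), and the log2 fold change was -1.64 ± 0.23 (SE).

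The ID genes differed from one another in level and in size of change. ID4 (ENSG00000172201, chromosome 6, 19837386 to 19840684, plus strand) was the most abundant, in CPM and per length, with 619.8, 658 and 530.5 CPM in the controls and 371, 491 and 358 CPM with TGF-β. It also had the smallest change of the 7 genes, a log2 fold change of -0.60 ± 0.13 (SE). TGF-β replicate 2, the highest of its group, came closest to a control library. ID2 (ENSG00000115738, chromosome 2, 8678845 to 8684453, plus strand), which is also known to bind RB1, had 182, 278 and 215 CPM in the controls and 76.2, 109.6 and 61.0 CPM with TGF-β. Its log2 fold change, -1.50 ± 0.22 (SE), was the lowest of the 4 ID genes, with means of 225 ± 48.6 and 82.3 ± 24.8 CPM (SD, n = 3).

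ID1 (ENSG00000125968, chromosome 20, 31605283 to 31606515, plus strand), the BMP target most used as a readout, had 109, 117 and 99.1 CPM in the controls and 69.7, 71.6 and 42.1 CPM with TGF-β. ID3 (ENSG00000117318, chromosome 1, 23557918 to 23559794, minus strand) had 49.7, 56.0 and 36.4 and 27.2, 33.8 and 15.2 CPM. TGF-β replicate 3 was the lowest of its group for all 4 ID genes and for SMAD9, but not for ATOH8 or SMAD6. The log2 fold changes were -0.86 ± 0.18 for ID1 and -0.94 ± 0.26 for ID3 (SE).

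ATOH8 (ENSG00000168874, chromosome 2, 85751344 to 85788066, plus strand) encodes a bHLH transcription factor of the atonal family and is a BMP target in several cell types. It was the gene whose low level helped to choose the set. It had 17.5, 26.0 and 29.2 CPM in the controls and 2.20, 4.13 and 3.21 CPM with TGF-β. No TGF-β library came near the lowest control, replicate 1. The means were 24.2 ± 6.05 and 3.18 ± 0.965 CPM (SD, n = 3), and the log2 fold change was -2.97 ± 0.26 (SE).

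In edgeR's quasi-likelihood test over all genes, 5 of the 7 had an adjusted p under 0.05, all lower with TGF-β, and ID3 and ID4 did not. Of all genes tested, 2.26% passed that threshold, 1.27% higher and 0.991% lower. Because these differences were known when the genes were selected, nothing is read from the count. The order of the levels per length moved little: as CPM per kb of exons, ID4 led in both states, with 257 in control and 174 with TGF-β. ID2 was above ID1 in control, at 102 against 87.8 CPM per kb, and below it with TGF-β, at 37.3 against 49.6. SMAD9 was the lowest per length in both, at 1.29 and 0.426 CPM per kb.

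The BMP receptors tested, and SMAD1, SMAD5 and SMAD4, did not pass the test in PEO4. Of 7 receptor genes, 6 were tested and 0 passed an adjusted p of 0.05, and of SMAD1, SMAD5 and SMAD4 0 of 3 passed (edgeR's quasi-likelihood test). DESeq2 called 0 of these 9 genes as well, and ACVR1 and ACVR2A were the 2 with an unadjusted p under 0.05 in edgeR. The type I receptor BMPR1A had 76.8 ± 4.92 CPM in control and 76.3 ± 5.22 CPM with TGF-β (SD, n = 3; edgeR's adjusted p 0.847). The type II receptor BMPR2 had a log2 fold change of 0.19 ± 0.09 (SE; edgeR's adjusted p 0.35). For the other receptors the values were 0.25 ± 0.10 for ACVR1, -0.26 ± 0.10 for ACVR2A, 0.03 ± 0.09 for ACVR2B and -0.01 ± 0.29 for BMPR1B, and ACVRL1 was too low to test. The SMADs outside the 7 genes had smaller fitted changes than SMAD9. SMAD1 had a log2 fold change of -0.09 ± 0.15, SMAD5 of -0.03 ± 0.08 and SMAD4, the partner shared with TGF-β signalling, of -0.11 ± 0.07 (SE; edgeR's adjusted p 0.797, 0.887 and 0.458).

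The lists read next hold 85 genes other than the 7. They cover the BMP pathway and, beside it, E proteins, cell-cycle genes linked to ID proteins and factors tied to ID repression. Of the 85, 65 were tested and 3 passed, with a median log2 fold change of -0.00132. CDKN1A, SMAD7, SKIL and CDKN2B are also among the TGF-β-induced genes below, so CDKN1A is counted in both. The ligand BMP7 fell with TGF-β, with 208 ± 51.8 CPM in control and 78.1 ± 28.2 in the treated libraries (SD, n = 3; log2 fold change -1.46 ± 0.27, SE; edgeR's adjusted p 0.0301). That call was lost without any 1 of TGF-β replicates 1, 2 and 3 and control replicates 2 and 3, where the log2 fold change lay between -1.66 and -1.20. FSTL3, a secreted antagonist of activins, rose, with means of 5.68 ± 1.29 and 14.4 ± 0.895 CPM (SD over 3 libraries; log2 fold change 1.31 ± 0.17, edgeR's adjusted p 0.00719). CDKN1A, the cell-cycle inhibitor p21 that E proteins are known to activate, rose, with means of 29.7 ± 2.25 and 60.6 ± 3.34 CPM (SD over 3 libraries; log2 fold change 0.99 ± 0.09, edgeR's adjusted p 0.002). By list, 1 of 7 tested ligands, 1 of 8 antagonists and 1 of 6 cell-cycle genes linked to ID proteins passed, and 0 of 12 modulators, 0 of 16 other BMP targets, 0 of 3 E proteins and 0 of 5 factors tied to ID repression (edgeR's quasi-likelihood test). In those last 4 lists 3, 3, 1 and 1 genes had an unadjusted p under 0.05, and DESeq2 called 1 modulator, the SMAD corepressor SKIL, and 0 of the others. Without control replicate 1, 8 genes of these lists passed, and with the remaining single libraries left out 2 or 3 did.

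The other BMP targets were thus not uniformly lower. SMAD7, an inhibitory SMAD that TGF-β also induces, had a log2 fold change of 0.32 ± 0.18 (SE; edgeR's adjusted p 0.432), where SMAD6 was at -1.16 ± 0.16. The fitted change was higher for 9 and lower for 7 of the 16 tested other targets, with a median of 0.07. The 3 with an unadjusted p under 0.05 in edgeR were MSX2, DLX3 and UNC5B, all of them lower. Their log2 fold changes were -0.92 ± 0.34, -0.65 ± 0.23 and -2.02 ± 0.58 (SE), with edgeR's adjusted p 0.224, 0.206 and 0.121. With the replicate block 6 of the other targets passed. Among the factors tied to ID repression, ATF3 had 29.1 ± 9.37 CPM in control and 48.2 ± 20.6 CPM with TGF-β (SD, n = 3; edgeR's adjusted p 0.303). The E proteins that ID proteins bind had log2 fold changes of 0.26 ± 0.08 (TCF3), -0.01 ± 0.14 (TCF4) and -0.02 ± 0.07 (TCF12).

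Of 24 genes that TGF-β is known to induce, 22 were tested in the same libraries and 10 rose past the threshold, with a median log2 fold change of 1.22 over the 22. The fitted change was higher for 21 and lower for CTGF, at -0.39 ± 0.38 (SE; edgeR's adjusted p 0.663). Those that rose included LTBP2, a binding protein of latent TGF-β, at 2.74 ± 0.23 (edgeR's adjusted p 0.00145), PMEPA1, a feedback inhibitor of TGF-β SMADs, at 2.32 ± 0.38 (edgeR's adjusted p 0.0182), and NOX4, a NADPH oxidase, at 3.36 ± 0.28 (edgeR's adjusted p 0.00145). The rest of the 10 were TGFBI, THBS1, FN1, ADAM19, LOX, TAGLN and CDKN1A, and without control replicate 2 the calls of PMEPA1, THBS1, FN1 and LOX were lost, which left 6, while without control replicate 1 the count was 16. PMEPA1 also lost its call without TGF-β replicate 1 or 2, FN1 without TGF-β replicate 1 or 2 or control replicate 3, and LOX without TGF-β replicate 1 or 3 or control replicate 3. Library by library, the median of the 7 BMP response genes relative to the control mean (log2) was -1.37, -1.01 and -1.61 in TGF-β replicates 1, 2 and 3, where the median of the 22 TGF-β-induced genes was 1.33, 1.22 and 1.23. In control replicates 1, 2 and 3 the medians were -0.28, 0.13 and -0.04 for the BMP response genes and 0.43, -0.12 and -0.36 for the TGF-β-induced genes. All 7 BMP response genes were below their control mean in each of the 3 TGF-β libraries. The direction of the 7 was known when they were chosen, and the gene lists too were chosen with earlier results of these data known. The opposite signs, and the counts and medians of the TGF-β-induced genes, are therefore a description.

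**Figure D2:**
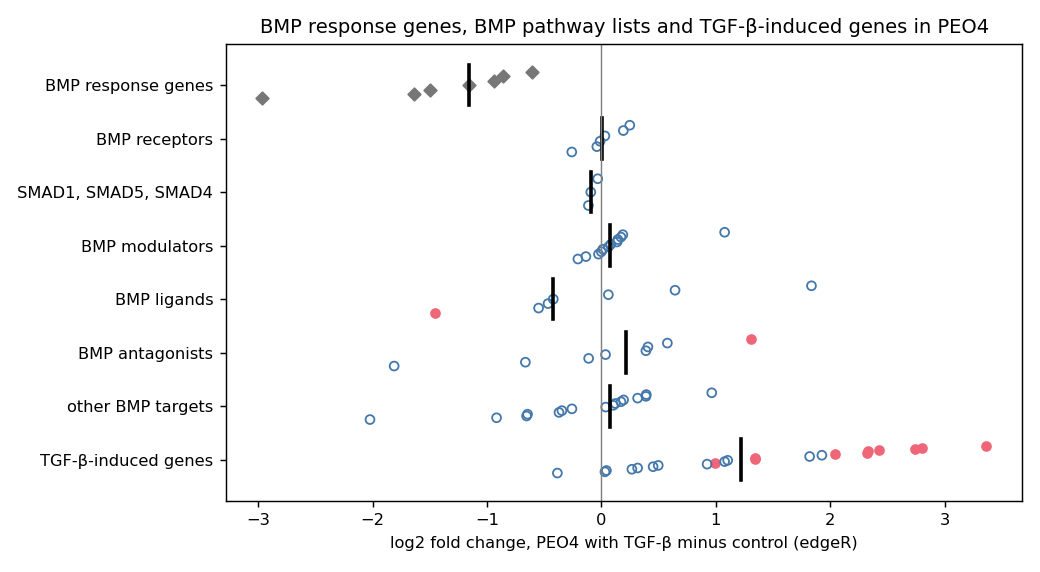
Fitted log2 fold change of PEO4 with TGF-β minus control (x axis) for each tested gene of each list (rows), with grey diamonds for the 7 BMP response genes, filled circles for list genes past an adjusted p of 0.05 in edgeR, open circles for the rest and black bars for list medians. The 7 lie between -2.97 and -0.60, the TGF-β-induced genes have a median of 1.22, and the BMP receptors lie between -0.26 and 0.25.

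Between the SW lines the 7 genes did not move together. SMAD6, ID1 and ATOH8 were higher in SW620, ID2 and SMAD9 were lower there, and ID3 and ID4 overlapped between the lines. Of all 20941 genes tested, 19.9% were higher and 24% lower in SW620 without overlap. The median log2 fold change of the 7 was 0.77, which is the value of ID4, against 0.03 over all genes. Without SW620 replicate 3 the median was 0.02.

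SMAD6 had 5.58, 7.01 and 7.15 CPM in SW480 replicates 1, 2 and 3 and 47.9, 58.3 and 54.4 CPM in SW620. The libraries of each line lay close together, and the SW620 mean was 8.13 times the SW480 mean (log2 fold change 3.05 ± 0.18, SE). SMAD9 had 2.82, 3.62 and 2.88 CPM in SW480 and 2.04, 1.72 and 1.58 CPM in SW620, a log2 fold change of -0.78 ± 0.32 (SE). The inhibitory and the signal-carrying SMAD thus had opposite orders in these lines and the same order in PEO4.

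ID1 and ID2 also had opposite orders. ID1 had 2.92, 4.38 and 7.10 CPM in SW480 and 26.9, 16.4 and 60.0 CPM in SW620, a log2 fold change of 2.86 ± 0.50 (SE). SW620 replicate 3 was the highest of its line, and without it the value was 2.19. ID2 had 228, 151 and 236 CPM in SW480 and 28.3, 21.6 and 35.8 CPM in SW620. Its SW480 mean was 7.18 times the SW620 mean (log2 fold change -2.82 ± 0.25, SE), and no other gene of the 7 had SW480 levels overlapping those of the PEO4 control. Per length, ID2 was the highest of the 7 in SW480, at 93.0 CPM per kb against 3.89 for ID1, and ID1 was the highest in SW620, at 27.9 against 13.0 for ID2.

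ATOH8 had 1.46, 0.876 and 1.65 CPM in SW480 and 2.72, 4.14 and 4.04 CPM in SW620, with no overlap (log2 fold change 1.47 ± 0.38, SE). The SW620 range overlapped that of PEO4 with TGF-β. ID3 had 2.31, 3.39 and 3.34 CPM in SW480 and 2.92, 3.12 and 4.18 CPM in SW620, which overlapped (log2 fold change 0.20 ± 0.31, SE).

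ID4 was low in both lines, with 1.26, 1.17 and 0.823 CPM in SW480 libraries and 0.827, 0.0538 and 4.59 CPM in SW620 libraries. These are few reads: 25, 20 and 16 counts in SW480 replicates 1, 2 and 3 and 17, 1 and 99 counts in SW620. At the share of the PEO4 level that PEO4-specific genes had in each library, ID4 would have 22.4, 27.9 and 14.7 counts in SW480 and 15.4, 15.2 and 129 counts in SW620. The counts observed in SW lines were therefore no more than 1.11 times those values. The log2 fold change of 0.77 ± 0.98 (SE) turned to -1.24 without SW620 replicate 3, so no direction is read for ID4. For the other 6 genes the same share came to between 1.32% (SMAD6) and 10.3% (ID3) of the counts in SW620 replicate 3.

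**Figure D3:**
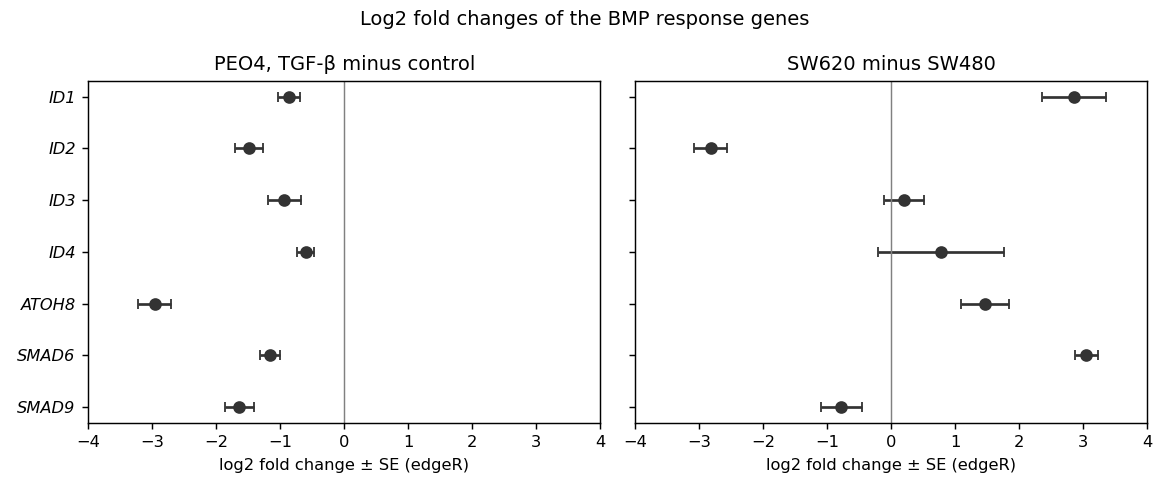
Fitted log2 fold change with its SE (x axis) for each gene, for PEO4 with TGF-β minus control (left) and SW620 minus SW480 (right). The 7 values at left lie between -2.97 and -0.60, and those at right run from -2.82 for ID2 to 3.05 for SMAD6.

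In edgeR's quasi-likelihood test over all genes, 4 of the 7 had an adjusted p under 0.05, ID1, ATOH8 and SMAD6 higher in SW620 and ID2 lower. The background was wide: 30.5% of all genes tested passed, 13.5% higher and 17% lower in SW620. These differences too were known when the genes were selected, and nothing is read from the count.

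Of the 9 tested receptor and SMAD genes outside the 7, BMPR1A, BMPR2, ACVR1 and SMAD5 passed the test between the SW lines. BMPR1A rose, with 45.2 ± 5.83 CPM in SW480 and 83.0 ± 12.1 in SW620 (SD, n = 3; edgeR's adjusted p 0.00429; call lost with GC correction), while BMPR2 fell by 1.20 and ACVR1 by 1.55 on the log2 scale (edgeR's adjusted p 0.00171 and 0.000633). SMAD5 had 129 ± 9.18 CPM in SW480 and fell to 45.7 ± 9.15 in SW620 (SD, n = 3; edgeR's adjusted p 0.000386), and SMAD1 had a log2 fold change of 0.44 ± 0.20 (SE; edgeR's adjusted p 0.138). SMAD4 was low in both lines: SW480 had 3.24 ± 0.114 CPM, SW620 had 3.33 ± 1.35 and PEO4 control 103 ± 2.26 (SD, n = 3; SW620 over SW480, edgeR's adjusted p 0.924). ACVR2A, ACVR2B and BMPR1B did not pass the test between the lines, with log2 fold changes of -0.03 ± 0.18, 0.09 ± 0.17 and 0.71 ± 0.39 (SE; edgeR's adjusted p 0.914, 0.725 and 0.215).

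Of 8 BMP ligands tested, BMP4, BMP6, BMP7, BMP8B and BMP2 fell and BMP5 rose past an adjusted p of 0.05. BMP4 had 351 ± 28.9 CPM in SW480 against 113 ± 23.7 in SW620 (SD, n = 3; edgeR's adjusted p 0.000407) and BMP5 had 2.75 ± 1.80 against 10.1 ± 1.92 (edgeR's adjusted p 0.0106). BMP6 (-1.20 ± 0.39; edgeR's adjusted p 0.0423) lost its call with DESeq2, no filter, total counts only, and without SW480 replicate 1, 2 or 3 or SW620 replicate 1 or 3. BMP2 had 0 to 3 counts in the SW620 libraries. Against a floor of 3 counts, taken per library, it was 20.4-fold lower. With counts above 0 this is no lower bound. The antagonists CHRD (-4.34 ± 0.47, which binds BMPs outside the cell), TWSG1 (-1.44 ± 0.21) and FSTL3 (-0.86 ± 0.25) fell, 3 of 6 tested. FSTL3 lost its call with GC correction and without SW480 replicate 1 or 3 or SW620 replicate 1.

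Of 18 tested other BMP targets, 8 passed the threshold, 7 lower and 1 higher in SW620, and the fitted change was lower for 16. RUNX2, a bone and epithelial transcription factor, had 208 ± 29.5 CPM in SW480 and fell to 5.38 ± 0.980 in SW620 (SD, n = 3; edgeR's adjusted p 2.45e-06). MSX1, a homeobox factor, had 138 ± 49.3 CPM in SW480 and fell to 13.7 ± 2.56 in SW620 (SD, n = 3; edgeR's adjusted p 6.1e-05), and HEY2, TBX3, GATA2, SMAD7 and PRDM1 fell as well, while TBX2 rose (1.50 ± 0.24; edgeR's adjusted p 0.00164). SMAD7 had a log2 fold change of -1.72 ± 0.20 (SE; edgeR's adjusted p 0.000272), the opposite sign to SMAD6. Of the genes around ID action, the E proteins TCF3 and TCF12 rose (0.80 ± 0.20 and 0.98 ± 0.18), and CDKN1A and RB1 fell (-4.07 ± 0.27 and -1.88 ± 0.29; edgeR's adjusted p 1.04e-05 and 0.00121). CCND1 fell as well (-3.07 ± 0.31, edgeR's adjusted p 9.84e-05). ATF3, one of the factors tied to ID repression, rose (1.49 ± 0.32, edgeR's adjusted p 0.00745). SMAD3, MYC and CDKN2A also rose (0.64 ± 0.16, 0.86 ± 0.28 and 0.57 ± 0.17), with calls lost in 4, 6 and 9 alternatives. TCF12 lost its call with GC correction, TCF3 with GC correction and without SW480 replicate 1, 2 or 3 or SW620 replicate 1, and PRDM1 with GC correction and without SW480 replicate 1 or 3 or SW620 replicate 2. Over the 85 genes of the BMP pathway and ID lists, 32 of 68 tested passed, 10 higher and 22 lower, with a median of -0.50. CDKN1A and SMAD7 are also in the count of TGF-β-induced genes that follows. Among the TGF-β-induced genes 16 of 23 passed, 2 higher and 14 lower, with a median of -0.98, and without SW620 replicate 1 the count was 10.

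Genes within 100 kb of the 7 were also read. They were not named by the rule for named genes and were singled out after their values were seen. Of 43 such neighbours, 19 were tested in PEO4 and 1 passed, and 22 were tested between the SW lines and 13 passed, 2 higher and 11 lower in SW620. Over all genes tested, 2.26% passed in PEO4 and 30.5% between the SW lines, 13.5% higher and 17% lower in SW620. The counts of neighbours, here and by locus below, are descriptions.

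Around ID2, 4 of 5 tested neighbours were lower in SW620, as ID2 was. Its antisense neighbour ID2-AS1, which shares 38 exonic bases with it on the opposite strand, had 11.9 ± 1.00 CPM in SW480 and 0.960 ± 0.484 in SW620 (SD, n = 3). This was a log2 fold change of -3.62 ± 0.36 (SE; edgeR's adjusted p 9.86e-05). In PEO4 it had 6.48 ± 0.951 CPM in control and 2.67 ± 0.414 with TGF-β (SD, n = 3), with a fitted log2 difference of -1.32 ± 0.22 (SE; edgeR's adjusted p 0.0182, lost in 6 alternatives). Those alternatives were the fit of all 12 libraries and the fits without any 1 of TGF-β replicates 1, 2 and 3 and control replicates 2 and 3. Whether the counting used strand is not given in the sources used here, and without it the reads of the shared bases cannot be assigned to either gene.

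The lncRNA gene AC011747.1, 55.9 kb from ID2, had 20.9 ± 7.41 CPM in SW480 (SD, n = 3) and 1 to 3 counts in the SW620 libraries. Against a floor of 3 counts it was 140.3-fold lower. With counts above 0 this is no lower bound. LINC01814, 85.9 kb away, had a log2 fold change of -2.45 ± 0.35 (SE; edgeR's adjusted p 0.000765), and the pseudogene SNRPEP5 was at least 12.5-fold lower. KIDINS220, 36.6 kb from ID2 and so nearer than these 3, did not pass the test, at 0.04 ± 0.16 between the SW lines and 0.03 ± 0.07 in PEO4 (SE; edgeR's adjusted p 0.895 and 0.898). In PEO4, AC011747.1 had -1.45 ± 0.37 (SE; edgeR's adjusted p 0.0909).

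**Figure D4:**
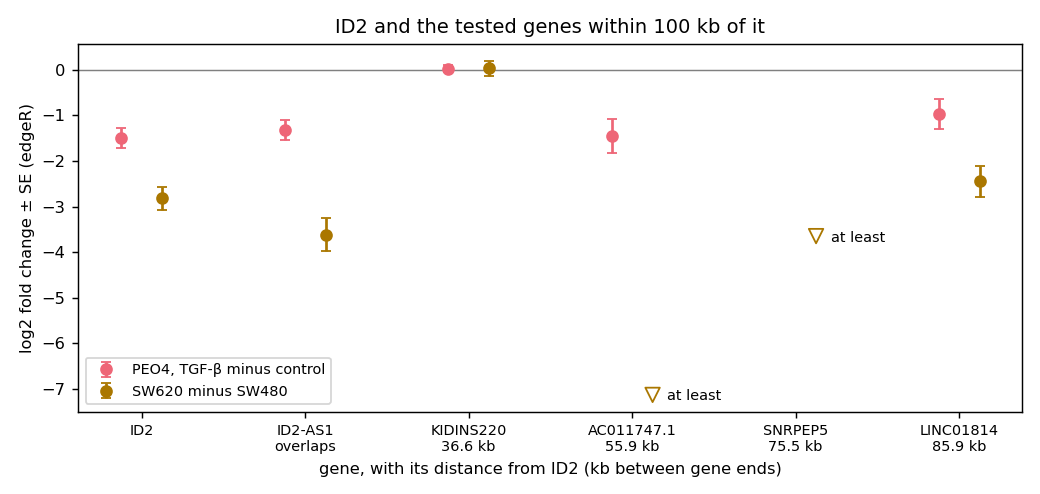
Fitted log2 fold change with its SE (y axis) of ID2 and the tested genes within 100 kb, ordered by distance in kb. Shown are PEO4 (TGF-β minus control) and the SW lines (SW620 minus SW480). Open triangles are fold changes against a floor of 3 counts. Their label "at least" holds for SNRPEP5, with 0 counts in SW620, but not for AC011747.1, with 1 to 3. KIDINS220 lies near 0 in both comparisons, and every other gene shown lies below 0.

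At the SMAD6 locus 2 lncRNA genes were higher in SW620, as SMAD6 was. LINC01169, 16.4 kb away, rose, with 1.96 ± 0.387 CPM in SW480 and 13.4 ± 3.76 in SW620 (SD, n = 3; log2 fold change 2.78 ± 0.30, SE; edgeR's adjusted p 0.000151). AC013564.1, which lies within an intron of SMAD6, rose, with 0.177 ± 0.0743 and 2.16 ± 1.38 CPM (SD, n = 3; log2 fold change 3.58 ± 0.70, edgeR's adjusted p 0.00446), and intronic reads of SMAD6 could be counted there. Near SMAD9, which was lower in SW620, RFXAP, ALG5, EXOSC8 and SUPT20H were lower too, with log2 fold changes from -1.15 to -0.76. Of these, RFXAP lost its call with GC correction and without SW480 replicate 1 or 3 or any 1 SW620 replicate, ALG5 with GC correction and without SW480 replicate 1 or 3 or SW620 replicate 1, and EXOSC8 without SW480 replicate 1. Other neighbours moved against the gene beside them between the SW lines. ST3GAL5, 49.1 kb from ATOH8, fell by 1.91 on the log2 scale in SW620 (edgeR's adjusted p 0.00471). In PEO4 ST3GAL5 had the same sign as ATOH8, at -1.58 ± 0.35 (SE, edgeR's adjusted p 0.057). BCL2L1, 57.9 kb from ID1, fell by 0.99 in SW620 (edgeR's adjusted p 0.0189). The BCL2L1 call was lost with GC correction and without SW480 replicate 1 or 3 or SW620 replicate 1. ASAP3, 73.3 kb from ID3, fell by 1.31 (edgeR's adjusted p 0.00547), where ID3 overlapped between the lines. HM13, 27.4 kb from ID1, had a log2 fold change of 0.09 ± 0.21 (SE; edgeR's adjusted p 0.803) beside the 2.86 of ID1.

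Across all 4 groups, 6 of the 7 genes had every PEO4 control library above all 6 SW libraries, ID2 being the exception. Of 23457 genes tested over the 12 libraries, 23.3% had that order. For SMAD6 the order was PEO4 control, SW620, PEO4 with TGF-β and SW480, with no overlap between neighbours. For ID1 it was the same at the ends, but SW620 overlapped PEO4 with TGF-β. For SMAD9 it was PEO4 control, SW480, PEO4 with TGF-β and SW620, the last 2 overlapping. For ID3 and ID4 both PEO4 groups were above both SW lines, which overlapped.

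The patterns over the 12 libraries, which come from 3 cell lines, set ID2 apart from the other ID genes. Pearson's r of log2 CPM was 0.96 for ID3 with ID4, 0.84 for ID1 with ID3, 0.79 for ID1 with ID4, 0.90 for ID1 with SMAD6 and 0.81 for ATOH8 with SMAD6, but for ID2 it was -0.06 with ID1, 0.39 with ID3, 0.40 with ID4 and -0.31 with SMAD6. With SMAD9, r was 0.78 for ID2, 0.70 for ATOH8, 0.66 for ID3, 0.56 for ID4, 0.36 for ID1 and 0.24 for SMAD6. These are descriptions over 12 points in 4 groups. Among 11750 genes searched, those most like each in pattern were PIK3C2B, IFIT5 and B3GNT3 for ID1 (r of 0.988, 0.984 and 0.977) and DYRK1A, PKP4 and PXK for ID2 (0.969, 0.963 and 0.955). For ID3 they were SSX1, GRIN2A and CAPS (0.994, 0.990 and 0.987), and for ID4 UCA1, EMX2OS and MAL (0.999, 0.998 and 0.997). The ID4 counts in the SW libraries were no more than 1.11 times the share that PEO4-specific genes had there. All r values of ID4, also those with other members, therefore include SW counts that were near or below that share. They are no measure of its expression within the SW lines. For ATOH8 they were PIK3R3, MEST and ZMIZ1 (0.938, 0.930 and 0.920), for SMAD6 TNS3, PTPN13 and SRSF11 (0.984, 0.981 and 0.974), and for SMAD9 ACE, PRUNE2 and DAAM1 (0.914, 0.902 and 0.899). ACE, which encodes angiotensin-converting enzyme, had the highest r with SMAD9, but not the same order of levels: its means were 25.3 CPM in the PEO4 controls, 4.35 CPM in the treated PEO4 libraries, 10.4 CPM for SW480 and 5.88 CPM for SW620.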

How the data were processed

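Total RNA of 12 libraries was sequenced after ribosomal RNA depletion, per the labels. The deposited table holds whole-number counts per Ensembl gene, and the other deposited tables were not used. Trimmomatic 0.36, STAR 2.5.2b, featureCounts of Subread 1.5.2, DESeq2 and GRCh38 are named, with no role, per the submitters' processing notes; the annotation and the use of strand in counting are not given in the sources used here.

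The 6 libraries of a comparison were fitted together, apart from the others, using edgeR 4.0.16 under R 4.3.3 (filterByExpr, TMM, quasi-likelihood test, two-sided, Benjamini-Hochberg over all genes tested, threshold 0.05). SE is the size of the log2 fold change over the square root of F, and the common biological coefficient of variation was 0.152 in PEO4 and 0.274 in the SW lines. CPM used TMM over 12 libraries, and CPM per kb the exon union in GENCODE 29, which held 56898 of 57500 IDs. The fit was tested on simulated data with known changes.

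The members and gene lists were chosen with earlier results of these data known. The rule for named genes takes the 7 members, listed pathway genes past the threshold, BMP receptors, SMAD1, SMAD5 and SMAD4, and for each member the 3 genes of highest Pearson correlation with at least 10 CPM in the highest group mean (log2, prior count 2). The alternatives were DESeq2 1.42.0, RLE or no scaling factors, 2 other filters, 1 model of all 12 libraries, a block for the replicate number, and leaving out each library. A GC correction (lowess span 0.3), with and without the block, was added after seeing the data. Replicates are biological, per the labels, which do not say more on their source.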

Additional observations from a re-analysis of the deposited data

How the results depend on the processing

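In PEO4, where 431 genes passed, the count was 922 with DESeq2, 165 with all 12 libraries in 1 model, 1457 with no filter, 2102 with the replicate block, 1906 with GC correction and the replicate block, and between 72 (without control replicate 2) and 1080 (without control replicate 1) with 1 library left out. The 3 genes called among the BMP pathway and ID lists became 5 with DESeq2, 5 with total counts only and 13 with no filter. They became 16 with the replicate block, 14 with GC correction and the block, and 2 to 8 with 1 library left out. The 10 TGF-β-induced genes became 17 with no filter, 19 with the replicate block, 18 with GC correction and the block, and 6 to 16 with 1 library left out. In the SW lines the 6385 genes became 10667 with the replicate block, 9967 with GC correction and the block and 4253 to 7419 with 1 library left out; the 16 TGF-β-induced genes became 10 to 16. The log2 fold change of ID4 ranged from -1.24 to 1.38 with 1 SW library left out. The cause of these shifts was not tested. A GC correction alone, chosen after seeing the data, left 296 genes in PEO4, 147 higher and 149 lower, where the uncorrected fit gave 242 and 189.

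The same-numbered replicates did not deviate together in every pair (correlations of 0.29, -0.14 and 0.48 in PEO4 and 0.02, 0.66 and 0.56 in the SW lines). Between replicates of different numbers the correlations ran from -0.49 to 0.24 in PEO4 and from -0.62 to 0.27 in the SW lines. The labels do not give the numbers as pairs, so the main fits took no pairs. Whether equal numbers mark a shared batch was not tested, and the block raised the counts as given above. In the replicate block the log2 fold change of ATOH8 in PEO4 was -2.97 and that of SMAD6 -1.15.

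All 7 BMP response genes kept their sign in PEO4 in the 16 fits, with ATOH8 between -3.16 and -2.77, SMAD9 between -1.79 and -1.53, ID2 between -1.72 and -1.29, SMAD6 between -1.30 and -1.03, ID3 between -1.17 and -0.68, ID1 between -0.98 and -0.66 and ID4 between -0.73 and -0.51. They were past the threshold in 16 fits for ATOH8, 15 for SMAD6 and SMAD9, 14 for ID2, 10 for ID1, 7 for ID4 and 4 for ID3. In the SW lines ID1, ID2 and SMAD6 were past it in all 16, ATOH8 in 15 (not without SW480 replicate 1), SMAD9 in 3, and ID3 and ID4 in 0. With at least 10 counts in every library ID4 gave no SW value. Over the single list genes and neighbours and all alternatives, 1557 values kept their side of the threshold, 108 lost the call and 18 gained it. With 1 to 99 counts per SW library, ID4 is the least precisely measured of the 7 there.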
